A study of Mus musculus with 6 samples.

Results

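The SR and hnRNP splicing regulators were followed in muscle stem cells of young and old mice. The set held the genes whose symbols begin with Srsf and a number, with Hnrnp, or that name Tra2 proteins or numbered subunits of splicing factors SF3a and SF3b. It came to 41 of the 12067 genes in the deposited table: 10 Srsf genes, 2 Tra2 genes, 20 hnRNP genes, 3 SF3a subunits and 6 SF3b subunits. The genes were matched by name, not by their values, though earlier results of these data were known when the set was chosen. All 41 were abundant enough to be tested, among 10609 genes tested in all.

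Satellite cells, the resident stem cells of skeletal muscle, were sorted from limb muscles of C57BL/6 males as CD45-, CD31-, Sca1- and VCAM+ cells. They were stained at 5 uM with ThiolTracker Violet, which labels reduced glutathione (GSH), and passed through the sorter a second time. The young group came from 4 month old mice, 1 animal per library, with all stained cells kept, nearly all of which were GSH-high per the labels. The old groups came from 23 month old mice, 2 pooled animals per library, and were collected as GSH-high and GSH-low fractions. Each of the 3 groups had 2 libraries of RNA primed with oligo(dT), and the labels do not say whether the old fractions came from the same pools. The young group thus differed from the old ones in age, in pooling and in the second gate, and these cannot be told apart.

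The spliceosome cuts introns from pre-mRNA, and the proteins described here help it find its sites. SR proteins carry arginine-serine repeats, usually bind exons and recruit the spliceosome to nearby splice sites, while many hnRNP proteins coat pre-mRNA and often repress exons, so that the balance of both kinds shapes which isoforms a cell makes. SF3a and SF3b are parts of the U2 snRNP, the particle that recognises the branch point of the intron. Many SR protein genes control their own levels by splicing a poison exon into their transcripts, which sends the RNA to nonsense-mediated decay (NMD).

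In GENCODE M21, 22 of the 41 genes (53.7%) had a transcript marked as an NMD target, against 2929 of 10178 tested protein-coding genes (28.8%). It was 9 of the 10 Srsf genes, all but Srsf10, both Tra2 genes, 10 of 20 hnRNP genes, 1 of 6 SF3b genes and 0 of 3 SF3a genes. Transcripts with a retained intron were annotated for 31 of the 41 (75.6%), against 60.4% of the tested coding genes. The 41 genes also had more annotated transcripts, with a median of 7 against 5, and the shares were not matched for this. The NMD mark does not say whether a transcript holds a poison exon. The deposited values are summed per gene over all exons, so productive and poison-exon transcripts cannot be separated in what follows.

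The promoters of 6 genes that passed the test in a comparison with young cells are shown, Hnrnpa1 falling and the others rising. Sf3b4 and Sf3b5, which also fell, are not shown, so the windows printed do not compare falling with rising genes. Sequences are from RefSeq (GRCm38.p6), read 5′ to 3′ on the strand of the gene, from 130 bases before to 20 bases after the start. Capitals mark matches to CCAAT (the CCAAT box), GGGCGG (the GC box), TATAAA (the TATA box) or TGACGTCA (the cAMP response element) on either strand. For Srsf4, 3 starts are listed and the first is shown.
Hnrnpa1 (chr15:103240267-103240416, plus strand): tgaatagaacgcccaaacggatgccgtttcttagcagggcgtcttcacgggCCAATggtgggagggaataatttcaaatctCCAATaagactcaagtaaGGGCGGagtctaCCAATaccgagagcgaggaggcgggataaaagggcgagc
Srsf1 (chr11:88047243-88047392, plus strand): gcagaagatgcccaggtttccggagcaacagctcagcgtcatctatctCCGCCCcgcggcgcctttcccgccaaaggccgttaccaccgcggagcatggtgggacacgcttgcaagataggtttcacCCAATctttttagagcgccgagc
Srsf2 (chr11:116853075-116853224, minus strand): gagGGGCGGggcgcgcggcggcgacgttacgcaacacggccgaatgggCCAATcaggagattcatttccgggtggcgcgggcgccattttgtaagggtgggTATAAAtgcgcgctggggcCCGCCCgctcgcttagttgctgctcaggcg
Srsf4 (chr4:131873507-131873656, plus strand): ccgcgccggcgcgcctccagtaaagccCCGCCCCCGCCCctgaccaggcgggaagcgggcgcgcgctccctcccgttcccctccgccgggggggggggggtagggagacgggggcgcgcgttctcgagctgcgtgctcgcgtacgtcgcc
Tra2a (chr6:49264033-49264182, minus strand): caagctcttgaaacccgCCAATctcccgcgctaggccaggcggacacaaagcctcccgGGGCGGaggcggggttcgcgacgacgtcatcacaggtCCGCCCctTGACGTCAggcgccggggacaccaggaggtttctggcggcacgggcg
Hnrnph2 (chrX:134601049-134601198, plus strand): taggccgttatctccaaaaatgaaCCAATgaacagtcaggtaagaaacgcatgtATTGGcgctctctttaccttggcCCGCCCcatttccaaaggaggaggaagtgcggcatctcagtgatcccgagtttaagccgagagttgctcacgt

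Of the 41 genes, 37 had a promoter in the RefSeq table. CCAAT was found in 17 of the 37 windows (45.9%), against 24.9% of the 27025 windows of this length in the table. Those 27025 windows were not limited to the 10609 tested genes and were not matched for level. GGGCGG was found in 22 (59.5%) against 29.6%, TATAAA in 4 (10.8%) against 7.8%, and TGACGTCA in 1 (2.7%), that of Tra2a, against 1.56%. The Hnrnpa1 window held 3 CCAAT matches, Hnrnph2 held 2, Srsf1, Srsf2 and Tra2a held 1 each and Srsf4 held 0. Of the windows printed, only that of Srsf2 held TATAAA. A match is a run of letters and was not tested as a binding site.

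Levels are RPKM, reads per kilobase of exon scaled to the size of the library, as the authors deposited them. Reads recovered from these values totalled 60.05 to 63.11 M in young, 60.76 to 68.79 M in old GSH-high and 46.99 to 50.7 M in old GSH-low libraries, and 891 to 127838 reads lay behind each value of the 41 genes. The summed level of satellite cell markers (10 of 10 in the table) was 3245 to 3455 RPKM in young, 3056 to 3246 in old GSH-high and 2606 to 2768 in old GSH-low libraries. Markers of tenocytes, the cells of tendon (9 of 9), summed to 36.0 to 38.4, 642.2 to 812.0 and 2676 to 3067 RPKM in the same order. Fibro-adipogenic progenitor markers (8 of 8) summed to 797.5 to 806.1, 1075 to 1130 and 1426 to 1571, and those of leukocytes (8 of 12) to 7.75 to 8.22, 45.8 to 53.2 and 136.7 to 142.1. Endothelial markers (10 of 10) summed to 32.3 to 37.2, 67.4 to 69.3 and 19.2 to 23.2, and fat cell markers (3 of 5) to 0.107 to 0.173, 48.2 to 68.9 and 1.52 to 2.30. Myofibre markers (6 of 9) summed to 18.3 to 18.6, 15.4 to 16.4 and 38.9 to 39.0, pericyte and smooth muscle markers (7 of 7) to 134.3 to 148.5, 77.0 to 97.7 and 100.6 to 102.0, and Schwann cell markers (6 of 6) to 7.02 to 8.18, 16.6 to 17.7 and 11.8 to 16.4. Among these, Ms4a1, Adipoq, Cfd and Cidec had 0 reads in at least 1 library. Summed markers of tenocytes, progenitors, leukocytes and myofibres were thus highest in old GSH-low libraries. Those of endothelium, fat and Schwann cells were highest in old GSH-high, and those of pericytes in young libraries. A sum follows its most abundant genes, and in the test described below some lists went otherwise. Of 6 pericyte markers tested, 5 rose and 1 fell in old GSH-high against young (median log2 change 0.963). In old GSH-low against young 4 rose and 1 fell (1.244). Of 8 progenitor markers, 1 rose and 2 fell in old GSH-low against old GSH-high (median 0.01). Of 4 Schwann cell markers tested, 1 rose and 1 fell between these fractions. Satellite cell sums of the young and old GSH-high groups overlapped, and those of old GSH-low were lowest. Their part in the results below was not tested. In bulk RNA, fewer cells of a type and less RNA per cell cannot be told apart.

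As a family the 41 genes were abundant and steady. Their median level over the 6 libraries was 46.84 RPKM, against 6.56 for all tested genes. Their median coefficient of variation (CV, the SD over the 6 libraries divided by the mean) was 7.75%, against 13.66%. No genes of like level were compared, so the lower CV cannot be told apart from the higher level. The summed level of the 41 genes was 3114 and 2971 RPKM in the young libraries, 3167 and 3176 in old GSH-high and 3047 and 2916 in old GSH-low. They took 1.56% to 1.57%, 1.70% to 1.73% and 1.59% to 1.65% of all reads. The summed levels of young and old GSH-low libraries overlapped, and those of old GSH-high lay above both.

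Srsf5 had the highest level per length, with a mean of 395.8 RPKM over the 6 libraries. Hnrnpk (220.0), Hnrnpa2b1 (216.8), Srsf7 (202.1) and Hnrnpab (186.7) followed, and the levels of these 4 overlapped between neighbours across libraries. Hnrnpr (5.44) and Hnrnpul2 (2.76) were the lowest. The CV was smallest for Sf3b2 (2.49%), Srsf5 (2.94%) and Hnrnpr (2.95%), and widest for Sf3b5 (24.06%), Hnrnpa1 (23.22%), Hnrnpul2 (19.86%) and Srsf1 (16.41%).

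Tests used limma-trend on log2(RPKM + 1) over all genes, with p-values adjusted by the Benjamini-Hochberg method over the 10609 genes, and a gene passed at an adjusted p under 0.05, two-sided. Log2 fold changes below are on that scale, with the SE. Group levels are means ± SD of n = 2 libraries, and every p rests on 2 libraries per group. The 3 comparisons share libraries pairwise, so their results are not independent.

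Between the old GSH-low and old GSH-high fractions, none of the 41 genes passed the test, where 5.38% of all tested genes did (3.69% up and 1.69% down). An unadjusted p under 0.05 was reached by 3 of them (Hnrnpf, Hnrnph2 and Hnrnpu), all lower in GSH-low, and limma-voom on the recovered reads also called 0. Fitted log2 changes ran from -0.27 to 0.29 with a median of -0.08, against -0.01 for all tested genes. The 95% interval lay inside a 2-fold change in either direction for all 41 genes and inside a 1.5-fold change for 40, all but Hnrnpul2, the least abundant. Fitted changes of the 10 Srsf genes were all negative, from -0.21 to -0.02, and none passed.

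Against young cells, old GSH-high cells differed in 6 of the 41 genes (14.6%), where 28.8% of all tested genes passed. Srsf1, Srsf2, Srsf4 and Hnrnph2 rose and Hnrnpa1 and Sf3b5 fell: 4 genes (9.76%) against 15.1% of all genes that rose, and 2 (4.88%) against 13.7% that fell. Old GSH-low cells differed from young in 5 of the 41 (12.2%), where 36.8% of all tested genes passed. Srsf4 and Tra2a rose, 4.88% against 18.1% of all genes, and Hnrnpa1, Sf3b4 and Sf3b5 fell, 7.32% against 18.7%. Scaling by library size alone, without the correction for composition, moved the split over all genes from 1598 up and 1453 down to 1933 and 1124 for old GSH-high against young, and from 1919 and 1982 to 2259 and 1488 for old GSH-low against young.

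None of the 41 genes changed 2-fold in any comparison, as did 1.65%, 4.08% and 5.58% of all tested genes. The median size of the log2 change against young was 0.12 in old GSH-high and 0.11 in old GSH-low cells for the 41 genes, against 0.19 and 0.22 for all tested genes. Between the old fractions it was 0.12 against 0.11. The 95% interval stayed within 2-fold for all 41 genes in both comparisons with young, and within 1.5-fold for 37 and 38 of them. The counts moved with single libraries. In old GSH-high against young, 0 genes rose and 0 fell when either old GSH-high replicate was left out, 2 rose when either old GSH-low replicate was left out, 1 fell without young replicate 1 and 5 fell without young replicate 2. In old GSH-low against young, 0 rose without old GSH-low replicate 1, 1 rose without young replicate 2 or either old GSH-high replicate, and 6 fell without young replicate 2.

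**Figure D1:**
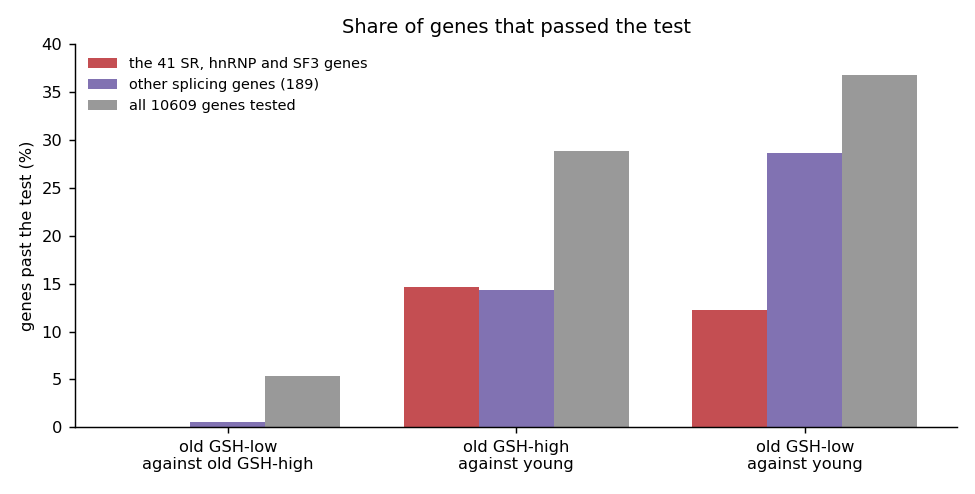
Share of genes, in percent, that passed the test (adjusted p under 0.05, limma-trend) in each of the 3 comparisons, as bars for the 41 SR, hnRNP and SF3 genes, for 189 other splicing genes and for all 10609 tested genes. The 41 genes stand at 0%, 14.6% and 12.2%, below all genes at 5.38%, 28.8% and 36.8%.

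**Figure D2:**
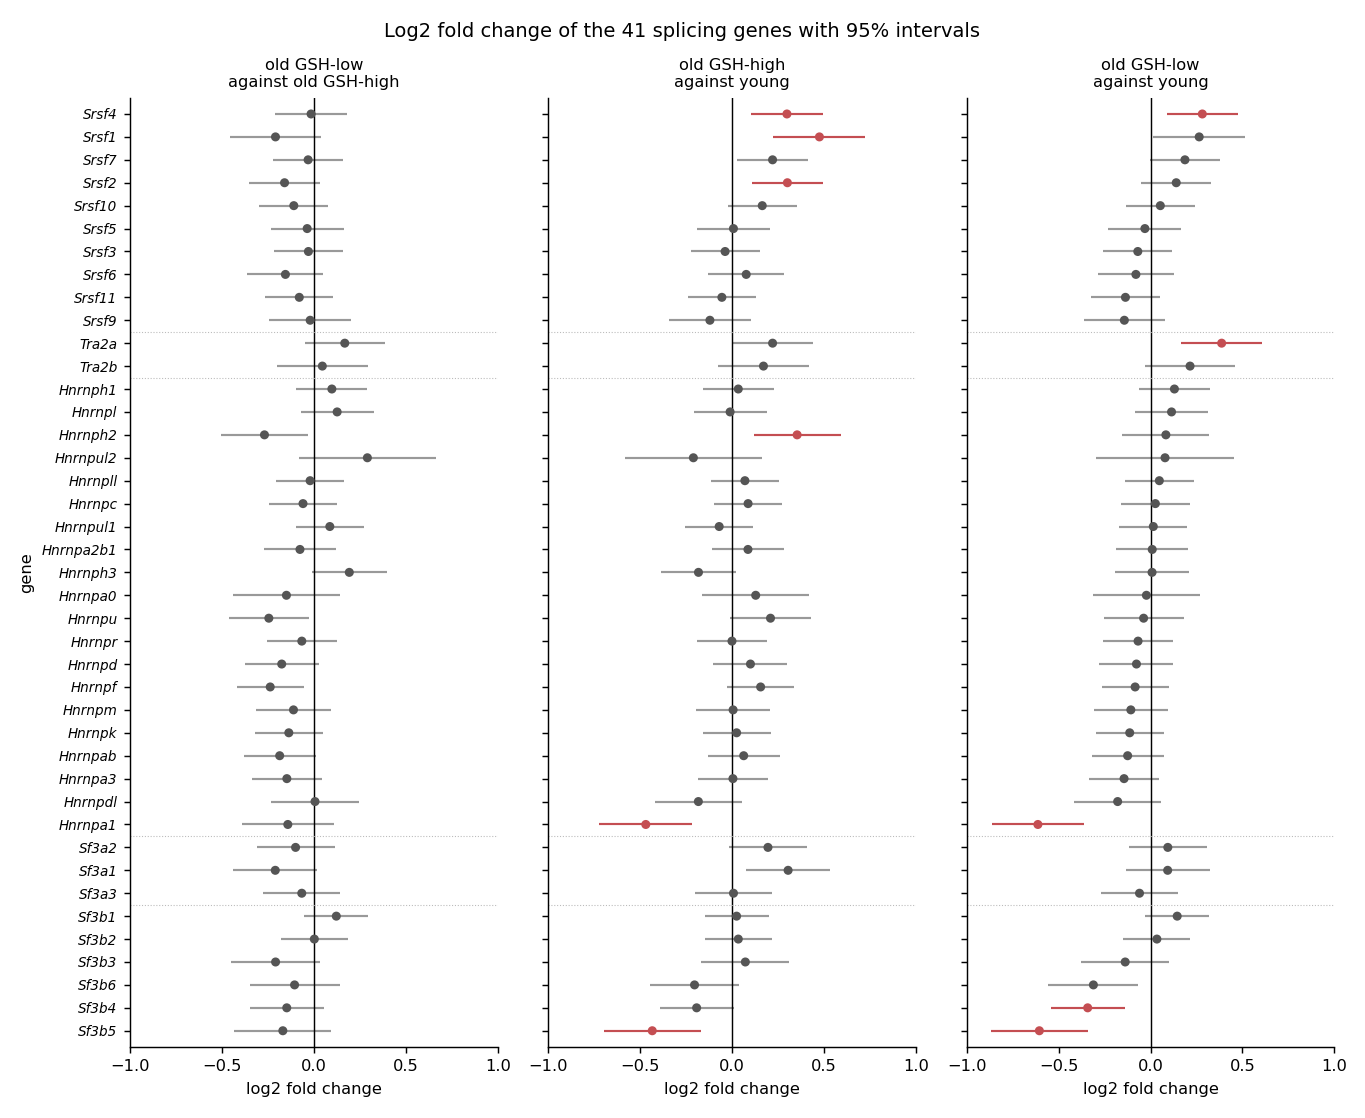
Fitted log2 fold change (horizontal axis, log2(RPKM + 1) scale) of each of the 41 genes (vertical axis, grouped as Srsf, Tra2, hnRNP, SF3a and SF3b) in the 3 comparisons. Points are estimates, bars are 95% intervals and red marks genes that passed the test, which are 0, 6 and 5 from left to right.

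Among the SR proteins, Srsf1 (SF2/ASF, the founding member of the family, which activates exons with GA-rich enhancers; chromosome 11, 88047373 to 88053755) had the largest fitted change in old GSH-high against young. It was at 43.3 and 47.8 RPKM in the young libraries, 62.3 and 64.9 in old GSH-high and 60.8 and 49.5 in old GSH-low. Both old groups lay above the young one, and the old GSH-low libraries were far apart from each other. Srsf1 rose by 0.47 ± 0.11 in old GSH-high against young (45.5 ± 3.22 to 63.6 ± 1.84 RPKM, 39.6% higher; limma adjusted p = 0.0127). In old GSH-low against young its change was 0.26 ± 0.11 (adjusted p = 0.09), and the fractions differed by -0.21 ± 0.11 (adjusted p = 0.345). The rise in old GSH-high had an adjusted p of 0.0508, 0.0589 and 0.0764 without young replicate 1, old GSH-high replicate 1 or old GSH-high replicate 2.

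Srsf2 (SC35, a marker protein of nuclear speckles; chromosome 11, 116849901 to 116853094) was at 144.0 and 135.6 RPKM in young, 175.8 and 168.8 in old GSH-high and 158.5 and 149.8 in old GSH-low libraries. The 3 groups did not overlap, with old GSH-high highest and young lowest. The rise in old GSH-high was 0.30 ± 0.08 (139.8 ± 5.95 to 172.3 ± 5.00 RPKM, 23.2% higher; limma adjusted p = 0.0281), while old GSH-low against young had 0.14 ± 0.08 (adjusted p = 0.224). Old GSH-low differed from old GSH-high by -0.16 ± 0.08 (adjusted p = 0.346). Among other settings, the rise missed the threshold without old GSH-high replicate 1 (0.207) or 2 (0.112), without old GSH-low replicate 1 (0.0569) or 2 (0.0563), and with the 4 libraries alone (0.0561). Mettl23 and Mfsd11, on the other strand, overlap 25.3% of the exon length of Srsf2. The strand of the libraries is not given in the sources used here, so reads of such partners cannot be told apart. Mfsd11 and Mettl23, looked up after the overlap was seen, were at 1.77 to 2.38 and 4.96 to 6.39 RPKM over the 6 libraries, against 135.6 to 175.8 for Srsf2.

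Srsf4 (SRp75, a large member of the family; chromosome 4, 131873617 to 131901706) was at 9.40 and 8.96 RPKM in young, 11.9 and 11.2 in old GSH-high and 11.7 and 11.03 in old GSH-low libraries. The old fractions overlapped, and both lay above young. It rose by 0.30 ± 0.09 in old GSH-high (9.18 ± 0.316 to 11.5 ± 0.499 RPKM, 25.4% higher; limma adjusted p = 0.0305) and by 0.28 ± 0.09 in old GSH-low (11.4 ± 0.488 RPKM, 23.9% higher; adjusted p = 0.0309). Srsf4 was thus the only SR protein gene to pass in both comparisons with young. Both calls were close to the threshold and 7 of 14 alternatives ended each of them. Without single libraries the adjusted p of the first reached 0.212 (old GSH-high replicate 1), 0.0944 (old GSH-high replicate 2), 0.0568 (young replicate 2) and 0.0533 (either old GSH-low replicate). That of the second reached 0.19 and 0.0802 (old GSH-low replicates 1 and 2), 0.0638 (young replicate 2), 0.0609 and 0.061 (old GSH-high replicates 1 and 2). Gm12992, annotated on the other strand, overlaps 43% of the exon length of Srsf4.

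The other SR proteins did not pass in any comparison. Srsf3, a small SR protein that also serves mRNA export, was at 89.2 and 85.4 RPKM in young, 82.4 and 87.5 in old GSH-high and 85.3 and 81.0 in old GSH-low libraries, with fitted changes of -0.03, -0.04 and -0.07 (SE 0.08 each) in the order low against high, high against young and low against young. Srsf5, the most abundant of the set, was at 411.4 and 384.7, 393.4 and 406.0, and 397.5 and 381.6 RPKM, so all 3 groups overlapped. Its 95% intervals ran from -0.24 to 0.16, -0.19 to 0.21 and -0.23 to 0.17 in the same order.

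Srsf7, the close relative of Srsf3 with a zinc knuckle, was at 185.1 and 181.7 RPKM in young, 217.6 and 209.8 in old GSH-high and 217.0 and 201.1 in old GSH-low libraries. All 4 old libraries lay above both young ones, with changes of 0.22 ± 0.08 (limma adjusted p = 0.0831) and 0.19 ± 0.08 (adjusted p = 0.115). The call depended on the scaling: with library size only, both passed (adjusted p = 0.0304 and 0.0354). Srsf10, which represses splicing when dephosphorylated, was at 35.4 and 35.8 RPKM in young, 39.2 and 40.7 in old GSH-high and 38.6 and 35.3 in old GSH-low, and only old GSH-high stood clear of young (0.16 ± 0.08, adjusted p = 0.172). Srsf11 was at 65.4 and 61.2, 60.6 and 61.0, and 55.8 and 59.2 RPKM, the lowest values being in old GSH-low (-0.14 ± 0.08 against young, adjusted p = 0.222). Srsf6 ranged from 97.8 to 117.2 RPKM and Srsf9 from 57.2 to 70.8, with all fitted changes of both between -0.16 and 0.08.

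The Tra2 proteins are SR-like activators that bind GAA-rich exon sequences. Tra2a (chromosome 6, 49243924 to 49264033) was at 23.4 and 20.4 RPKM in young, 25.1 and 26.1 in old GSH-high and 30.4 and 27.4 in old GSH-low libraries. The groups did not overlap, and the level was lowest in young and highest in old GSH-low. The rise passed in old GSH-low against young (0.39 ± 0.10; 21.9 ± 2.07 to 28.9 ± 2.15 RPKM, 32.0% higher; limma adjusted p = 0.0138). It did not pass in old GSH-high against young (0.22 ± 0.10, adjusted p = 0.12) or between the fractions (0.17 ± 0.10, adjusted p = 0.391). Without old GSH-low replicate 1 the rise had an adjusted p of 0.12. Tra2b was at 38.8 and 34.8 RPKM in young, 38.1 and 45.0 in old GSH-high and 45.2 and 40.5 in old GSH-low. Old GSH-high overlapped young, and no comparison of Tra2b passed (0.05 ± 0.11, 0.17 ± 0.11 and 0.21 ± 0.11). The ratio of Tra2a to Tra2b was 0.602 and 0.588 in young, 0.658 and 0.579 in old GSH-high and 0.673 and 0.676 in old GSH-low.

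**Figure D3:**
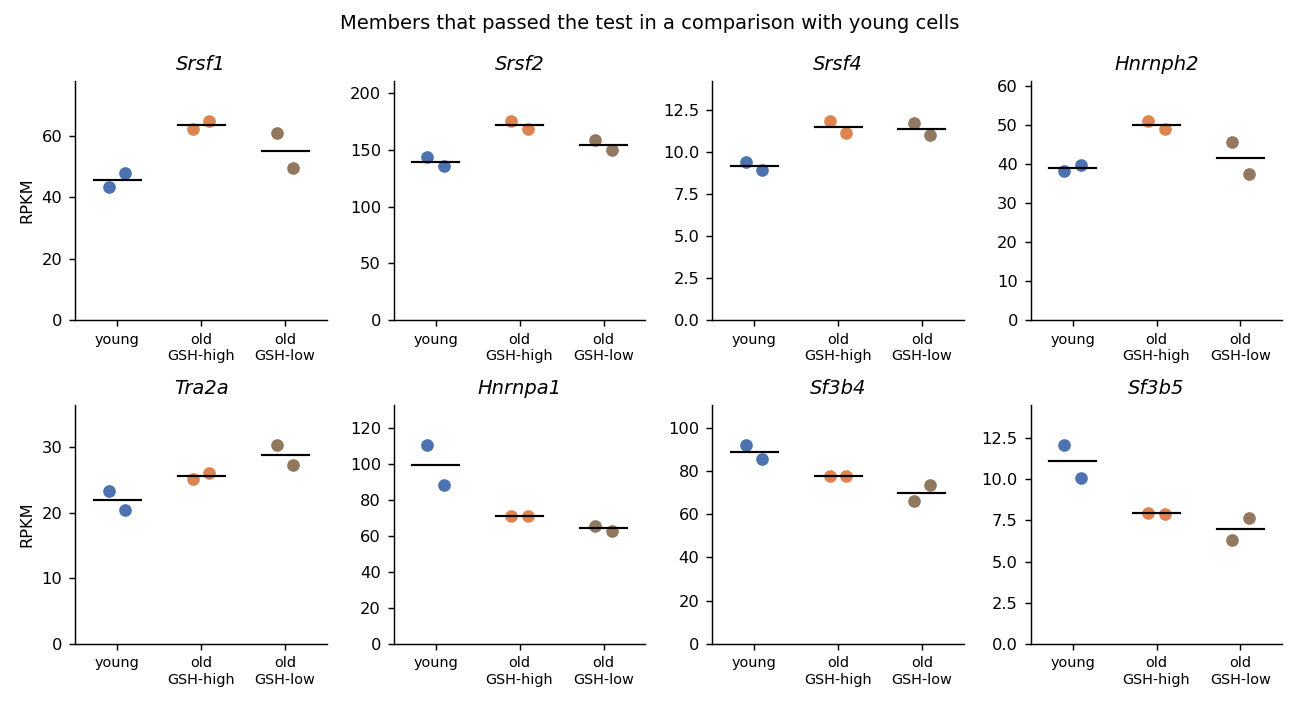
Level in RPKM (vertical axes, each starting at 0) of the 8 genes that passed the test in a comparison with young cells, by group. Each point is 1 library and each line the mean of 2. Hnrnpa1, Sf3b4 and Sf3b5 are lower in all 4 old libraries than in both young ones, and Srsf1, Srsf2, Srsf4 and Tra2a are higher.

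Among the hnRNP proteins, Hnrnpa1 (a repressor of many exons; chromosome 15, 103240432 to 103246692) fell in both old groups. It was at 110.8 and 88.1 RPKM in young, 71.3 and 70.9 in old GSH-high and 65.7 and 62.9 in old GSH-low libraries. The groups did not overlap, and the gap between the young libraries was wider than that between the means of the old groups. Hnrnpa1 fell by 0.47 ± 0.11 in old GSH-high (99.5 ± 16 to 71.1 ± 0.257 RPKM; limma adjusted p = 0.0137) and by 0.61 ± 0.11 in old GSH-low (64.3 ± 2.01 RPKM; adjusted p = 0.00305). In percent of the young mean these changes are -28.5% and -35.3%. The fall in old GSH-low passed in all 14 alternatives, with adjusted p from 0.000391 to 0.0242. That in old GSH-high missed the threshold without old GSH-high replicate 1 (0.0763) or 2 (0.0691). The fractions differed by -0.14 ± 0.11 (adjusted p = 0.54). No other annotated gene overlaps its exons, but processed pseudogene copies of Hnrnpa1 exist in the mouse genome, and how reads shared with them were counted is not given in the sources used here.

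Hnrnpa2b1, a close relative of Hnrnpa1 that also binds UAGG-type sequences, was at 218.8 and 205.2 RPKM in young, 225.2 and 224.7 in old GSH-high and 220.5 and 206.3 in old GSH-low libraries. Its changes were -0.08, 0.09 and 0.01 (SE 0.09 each), and none passed. The ratio of Hnrnpa1 to Hnrnpa2b1 within a library was 0.506 and 0.430 in young, 0.317 and 0.316 in old GSH-high and 0.298 and 0.305 in old GSH-low. The 3 groups of ratios did not overlap. Hnrnpa3, another A-type protein, ranged from 36.1 to 43.2 RPKM, and the ratio of Hnrnpa1 to it was 2.56 and 2.21 in young and 1.69 to 1.74 in the 4 old libraries. Hnrnpa0 ranged from 40.5 to 53.8 RPKM, with its lowest and nearly its highest value in the young group.

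Hnrnph2 (a G-tract binding protein on chromosome X, 134601179 to 134607060) was at 38.3 and 39.7 RPKM in young, 51.1 and 49.0 in old GSH-high and 45.7 and 37.4 in old GSH-low libraries. Old GSH-high lay above all other libraries, while old GSH-low straddled young. The rise in old GSH-high was 0.35 ± 0.10 (39.0 ± 0.988 to 50.0 ± 1.48 RPKM, 28.4% higher; limma adjusted p = 0.0334). Old GSH-low differed from old GSH-high by -0.27 ± 0.10 (adjusted p = 0.202) and from young by 0.08 ± 0.10 (adjusted p = 0.554). Of the libraries left out in turn, the rise missed the threshold without young replicate 1 (0.092) and without old GSH-high replicate 1 (0.183) or 2 (0.104). Its relatives did not pass: Hnrnph1 ranged from 82.7 to 96.4 RPKM, Hnrnph3 from 18.0 to 22.3, and Hnrnpf from 80.1 to 98.1. Hnrnpf had a change of -0.24 ± 0.08 between the fractions (adjusted p = 0.149).

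The abundant hnRNP genes Hnrnpc, Hnrnpk and Hnrnpu did not pass in any comparison. Hnrnpc, which binds uridine tracts, was at 152.1 and 141.3 RPKM in young, 157.3 and 154.1 in old GSH-high and 149.9 and 148.7 in old GSH-low, with changes of -0.06, 0.09 and 0.03 (SE 0.08 each). Hnrnpk, a poly(C) binding protein, was at 219.3 and 229.5, 226.0 and 230.3, and 207.8 and 207.0 RPKM. Old GSH-low was lowest, but the change was -0.14 ± 0.08 against old GSH-high (limma adjusted p = 0.405) and -0.11 ± 0.08 against young (adjusted p = 0.304). Hnrnpu, a nuclear scaffold protein that binds chromatin-associated RNA, was at 126.5 and 141.9 RPKM in young, 159.3 and 150.6 in old GSH-high and 137.1 and 124.2 in old GSH-low. Old GSH-high stood highest, with changes of -0.25 ± 0.10 in old GSH-low against old GSH-high (adjusted p = 0.207) and 0.21 ± 0.10 in old GSH-high against young (adjusted p = 0.136). The other hnRNP genes (Hnrnpab, Hnrnpd, Hnrnpdl, Hnrnpl, Hnrnpll, Hnrnpm, Hnrnpr, Hnrnpul1 and Hnrnpul2) did not pass in any comparison. Of the 20 hnRNP genes, 6, 13 and 9 had a positive fitted change in old GSH-low against old GSH-high, old GSH-high against young and old GSH-low against young.

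In the U2 snRNP, 2 of the 6 SF3b subunits fell in a comparison with young cells. Sf3b5, among the smallest SF3b proteins (chromosome 10, 13005343 to 13009183), was at 12.1 and 10.1 RPKM in young, 7.95 and 7.91 in old GSH-high and 6.29 and 7.65 in old GSH-low libraries. The groups did not overlap. Sf3b5 fell by 0.43 ± 0.12 in old GSH-high (11.1 ± 1.42 to 7.93 ± 0.0297 RPKM; limma adjusted p = 0.0225) and by 0.60 ± 0.12 in old GSH-low (6.97 ± 0.961 RPKM; adjusted p = 0.00414), and the fractions differed by -0.17 ± 0.12 (adjusted p = 0.478). As changes of the mean RPKM these are -28.6% and -37.3%. The fall in old GSH-low passed in all 14 alternatives, with adjusted p from 0.00222 to 0.0419. That in old GSH-high missed the threshold without young replicate 1 (0.0978) and without old GSH-high replicate 1 (0.0996) or 2 (0.0924).

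Sf3b4, which contacts pre-mRNA upstream of the branch point (chromosome 3, 96172332 to 96177564), was at 92.3 and 85.7 RPKM in young, 77.8 and 77.6 in old GSH-high and 66.4 and 73.8 in old GSH-low libraries. The groups did not overlap, and the order was that of Sf3b5. Sf3b4 fell by 0.34 ± 0.09 in old GSH-low against young (89.0 ± 4.67 to 70.1 ± 5.24 RPKM; limma adjusted p = 0.0162). The changes of -0.19 ± 0.09 in old GSH-high against young (adjusted p = 0.132) and -0.15 ± 0.09 between the fractions (adjusted p = 0.406) did not pass. Without old GSH-low replicate 1 the fall had an adjusted p of 0.152. Sf3b6, another SF3b subunit, was at 29.0 and 23.2, 22.4 and 22.4, and 20.4 and 21.1 RPKM. All 4 old libraries were below both young ones, and the change of -0.31 ± 0.11 in old GSH-low against young just missed the threshold (adjusted p = 0.0504). Sf3b6 passed with limma-voom on the recovered reads (adjusted p = 0.0468). Over the 14 alternatives its log2 change ran from -0.465, without young replicate 2, to -0.156.

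Sf3b1, the large scaffold that encloses the branch helix, was at 74.4 and 73.6 RPKM in young, 74.5 and 76.0 in old GSH-high and 82.2 and 81.7 in old GSH-low libraries. It was highest in old GSH-low, but the changes of 0.12 ± 0.08 against old GSH-high (limma adjusted p = 0.433) and 0.15 ± 0.08 against young (adjusted p = 0.17) did not pass. Sf3b2 stayed between 21.5 and 23.0 RPKM, and Sf3b3 between 30.4 and 37.6. Within the complex, the ratio of Sf3b5 to Sf3b1 was 0.163 and 0.137 in young, 0.107 and 0.104 in old GSH-high and 0.0765 and 0.0936 in old GSH-low. The ratio of Sf3b4 to Sf3b1 was 1.24 and 1.16, 1.04 and 1.02, and 0.807 and 0.904, and that of Sf3b6 to Sf3b1 was 0.390 and 0.316, 0.3004 and 0.295, and 0.248 and 0.259. For each of these 3 ratios the groups did not overlap, with young highest and old GSH-low lowest. These are ratios of RNA levels per length and say nothing of the proteins in the complex. All 3 share Sf3b1 as the denominator, which was itself highest in old GSH-low. Ratios to other SF3b subunits were not taken, and the order may not hold for them.

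**Figure D4:**
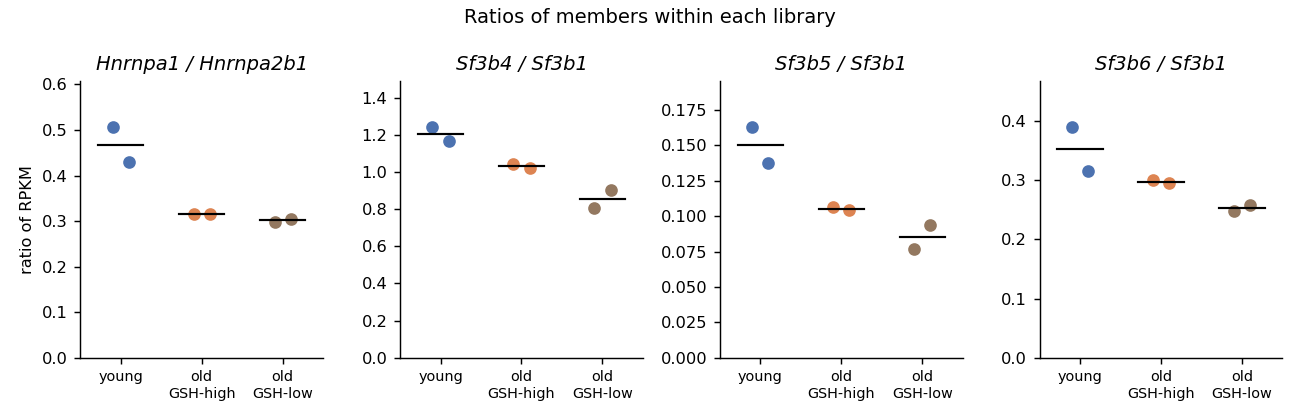
Ratio of RPKM values of 2 genes within each library (vertical axes, each starting at 0) for Hnrnpa1 to Hnrnpa2b1 and for Sf3b4, Sf3b5 and Sf3b6 to Sf3b1, by group. Each point is 1 library and each line the mean of 2, and in each panel the groups do not overlap and decline from young through old GSH-high to old GSH-low.

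None of the 3 SF3a subunits, which bridge SF3b and the rest of the U2 snRNP, passed. Sf3a1 was at 10.04 and 11.5 RPKM in young, 14.5 and 12.6 in old GSH-high and 11.5 and 11.5 in old GSH-low libraries. Old GSH-high lay above the rest, and its change of 0.30 ± 0.10 against young just missed the threshold (limma adjusted p = 0.0511). It passed in 5 of 14 alternatives, at adjusted p from 0.0224 to 0.0495. Sf3a2 ranged from 24.2 to 28.6 RPKM and Sf3a3 from 19.2 to 21.7.

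Over the 6 libraries, the genes whose log2(RPKM + 1) followed Hnrnpa1 most closely within the set were Sf3b6 (Pearson r = 0.95), Sf3b5 (0.94) and Sf3b4 (0.91). Srsf3 was followed by Srsf5 (0.84), Hnrnpdl (0.78) and Hnrnpa3 (0.78). These are descriptions over 6 libraries that share 3 groups. Hnrnpa1, Srsf3 and the genes named with them were all highest in young replicate 1. In the young libraries Hnrnpa1 was at 110.8 and 88.1 RPKM and Sf3b6 at 29.0 and 23.2. The correlations were not computed without that library. Across the 41 genes, the log2 change correlated with log2 exon length at r = 0.17, 0.15 and 0.25 in old GSH-low against old GSH-high, old GSH-high against young and old GSH-low against young, and with GC content at 0.03, -0.04 and -0.02. Genes are not independent replicates, so no p is given.

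Genes of the machinery around these regulators were read from 8 lists with 208 genes, of which 189 were tested. Of these, 1 rose and 0 fell in old GSH-low against old GSH-high (0.529%, against 5.38% of all genes), 14 rose and 13 fell in old GSH-high against young (14.3%, against 28.8%), and 19 rose and 35 fell in old GSH-low against young (28.6%, against 36.8%). With library size only, these became 18 up and 10 down in old GSH-high and 24 up and 23 down in old GSH-low. Leaving out either old GSH-high replicate left 2 up and 3 down in old GSH-high, and leaving out young replicate 2 gave 21 and 32. Old GSH-low had 5 up and 10 down without its replicate 1, 12 and 12 without its replicate 2, and 20 and 20 without young replicate 1. Between the fractions, 4 rose and 2 fell when either young replicate was left out, and 0 passed when old GSH-high replicate 1 or either old GSH-low replicate was left out. Of all tested genes, 3.69% rose and 1.69% fell between the fractions, 15.1% and 13.7% in old GSH-high against young, and 18.1% and 18.7% in old GSH-low against young, and the counts of single lists that follow stand beside these shares. The gene that differed between the fractions was Rsrp1, which encodes an arginine and serine rich protein. It averaged 98.1 ± 2.59 RPKM in young, 94.1 ± 0.946 in old GSH-high and 134.6 ± 4.20 in old GSH-low cells (0.51 ± 0.08 against old GSH-high, limma adjusted p = 0.00553). Rsrp1 did not pass when any 1 of the 4 libraries of the old fractions was left out. Of the 30 SR-related speckle proteins tested, 1 rose and 0 fell in old GSH-high and 4 rose and 1 fell in old GSH-low against young. Bclaf1, one of these, averaged 15.0 ± 0.359 RPKM in young and rose in both old groups, to 19.5 ± 0.155 and 20.04 ± 1.38 (adjusted p = 0.0148 and 0.00742).

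SR proteins are moved and switched by phosphorylation, and of 19 kinases, phosphatases and importers 3 rose and 2 fell in old GSH-high and 6 rose and 1 fell in old GSH-low against young. The 3 of 19 that rose in old GSH-high are near the 15.1% of all tested genes. Dyrk3, a kinase that dissolves stress granules and other condensates, averaged 0.938 ± 0.123 RPKM in young, 2.70 ± 0.188 in old GSH-high and 2.69 ± 0.030 in old GSH-low cells (0.93 ± 0.10 in each comparison with young; limma adjusted p = 0.000237 and 0.000169). Ppp1r10, a nuclear regulator of protein phosphatase 1, averaged 15.98 ± 0.819, 21.6 ± 0.896 and 25.2 ± 1.64 RPKM (0.41 and 0.62 against young). Clk4, an SR protein kinase, rose in old GSH-low against young (0.31 ± 0.08, adjusted p = 0.0149). Clk1, its close relative, averaged 31.8 ± 1.197, 30.7 ± 2.98 and 40.1 ± 1.04 RPKM. It rose against young (0.33 ± 0.09, adjusted p = 0.023), and its change against old GSH-high was 0.38 ± 0.09 (adjusted p = 0.0526).

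Of 26 hnRNP-type proteins under other symbols, 2 rose and 2 fell against young in each old group. Cirbp, a cold-inducible RNA binding protein, rose from 12.5 ± 0.189 RPKM in young to 16.3 ± 0.370 and 19.1 ± 0.088 in the old groups (limma adjusted p = 0.0098 and 0.000709). Of 24 Sm, U1 and U2 snRNP proteins, 1 rose and 3 fell in old GSH-high and 1 rose and 10 fell in old GSH-low, with median log2 changes of -0.193 and -0.238 against -0.004 and -0.021 over all tested genes. Lsm6, a subunit of the ring that binds U6 RNA, averaged 11.6 ± 1.36, 7.37 ± 0.425 and 7.19 ± 0.324 RPKM (-0.58 and -0.62 against young). Snrpa, the U1 A protein, averaged 44.3 ± 2.88, 35.4 ± 1.08 and 30.8 ± 2.85 RPKM (-0.32 and -0.51). Of 40 tri-snRNP and catalytic proteins 3 rose and 3 fell in old GSH-high, and 2 rose and 12 fell in old GSH-low. Prpf18, a factor of the second splicing step, fell by 0.49 ± 0.08 in old GSH-low (adjusted p = 0.00197). Of 15 branch point and U2AF factors, 1 rose and 1 fell in old GSH-high and 0 rose and 1 fell in old GSH-low.

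Of 19 tissue-type regulators of alternative splicing, 2 rose and 2 fell in old GSH-high and 4 rose and 4 fell in old GSH-low against young, counts near those of all tested genes (15.1% and 13.7%, then 18.1% and 18.7%). Rbfox2, which binds GCAUG, averaged 20.7 ± 0.768 RPKM in young, 16 ± 0.0867 in old GSH-high and 13.0 ± 0.478 in old GSH-low cells (-0.35 and -0.64, limma adjusted p = 0.0125 and 0.000476). Rbm24, a muscle splicing factor, averaged 9.15 ± 1.19, 6.18 ± 0.177 and 5.44 ± 0.017 RPKM (-0.49 and -0.65). Mbnl1, the factor sequestered in myotonic dystrophy, rose from 8.58 ± 0.903 to 11.6 ± 0.077 and 11.5 ± 0.804 RPKM (adjusted p = 0.0159 and 0.014). Of 16 exon junction and NMD factors, 1 rose and 0 fell in old GSH-high, and 0 rose and 4 fell in old GSH-low, among them Rbm8a (-0.38 ± 0.09), Magohb (-0.37 ± 0.11) and Eif4a3 (-0.28 ± 0.08), which belong to the junction complex core.

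The long RNA of paraspeckles, Neat1, averaged 11.4 ± 1.31 RPKM in young, 20.8 ± 2.61 in old GSH-high and 20.6 ± 2.57 in old GSH-low cells and rose in both old groups (0.81 and 0.80, limma adjusted p = 0.00176 and 0.00144). Malat1, the speckle RNA bound by SR proteins, averaged 196.7 ± 45.2, 152.2 ± 7.07 and 209.9 ± 37.8 RPKM, and did not pass in any comparison. Pax7, a satellite cell transcription factor, averaged 7.79 ± 0.204, 8.37 ± 0.397 and 11.9 ± 1.03 RPKM, and rose in old GSH-low against both other groups (adjusted p = 0.0225 against old GSH-high and 0.00206 against young). It was the 1 satellite cell marker of 10 that rose. In old GSH-low against young 5 of the 10 fell, among them Calcr (-0.99 ± 0.11) and Spry1 (-0.74 ± 0.09), and the median log2 change was -0.226. In old GSH-high against young 0 rose and 3 fell, and between the fractions 1 rose and 0 fell, with a median of -0.16. Of 28 immediate early genes, whose levels respond to cell isolation, 13 rose and 0 fell in old GSH-low against old GSH-high (3.69% and 1.69% of all tested genes), 6 rose and 18 fell in old GSH-high against young (15.1% and 13.7%), and 8 rose and 7 fell in old GSH-low against young (18.1% and 18.7%). Their part in the results of the splicing regulators was not tested.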

How the data were processed

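RNA was measured in 6 libraries of sorted muscle stem cells, 3 groups of 2. The authors deposited RPKM values per gene. Per the submitters' processing notes, Trim Galore, STAR, featureCounts (Subread) and edgeR were used with mm10 (GRCm38), with no versions. Whole reads were recovered for 12065 of 12067 genes (99.98%; within 0.01 reads plus a relative tolerance of 2e-08), and the step of 1 read matched the GENCODE M21 exon length for 11818 genes (97.9%), so RPKM values are per summed exon length. The file holds no 0, and 230 values were read as replaced zeros, none among the 41 genes.

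Genes with RPKM of at least 1 in 2 libraries were kept (10609 kept, 1458 removed). Values were taken as log2(RPKM + 1), which shrinks changes of low genes, and fitted with limma-trend (limma 3.58.1, R 4.3.3) as 3 group means over 6 libraries, with 3 residual degrees of freedom, two-sided, without a replicate block. The fit was also run on simulated reads with the same added spread for all genes and groups. That run does not show how the fit does on the spread of these libraries. Replicates of a group differed beyond sampling noise, most in young (chi-square per gene 58.41 in young, 21.63 in old GSH-high and 19.78 in old GSH-low). Other steps used Python 3.11.15, numpy 2.4.6, pandas 2.3.3 and matplotlib 3.10.9.

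The 41 genes and the gene lists were chosen with earlier results of these data known. Named genes were up to 8 called members per comparison in order of p, a panel of 16 members whatever their p, and up to 3 called genes per other list, plus Malat1, Neat1, Pax7 and Clk1; the text names part of these. Alternatives were a pseudocount of 0.1, no filter, median-of-ratios scaling, library size only, limma-voom (on recovered reads), only the 4 libraries compared, a replicate block and each library left out. Removing a trend over length and GC content (loess, span 0.3, 10544 genes) was chosen after seeing the data.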

Additional observations from a re-analysis of the deposited data

How the results depend on the processing

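No member's call changed direction under any of the 14 alternatives, and no member was called between the old fractions under any of them. Of the counts of members called (4 up and 2 down in old GSH-high against young, 2 up and 3 down in old GSH-low against young), those of 4 and 2 up moved to 2 and 1 with the 4 libraries alone and to 8 and 5 once the trend over length and GC was taken out. With library size only, 4 rose in old GSH-low against young. Leaving out each library in turn gave 0 to 5 up and 0 to 5 down in old GSH-high against young, and 0 to 2 up and 2 to 6 down in old GSH-low against young. A pseudocount of 0.1, no filter and median-of-ratios scaling kept all counts within 1.5 times.

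With the replicate number as a block, 1 member rose in old GSH-high and 1 in old GSH-low against young, and the counts that fell stayed at 2 and 3. The labels do not say that the numbers pair libraries. Deviations of same-numbered libraries correlated at -0.142 (young and old GSH-high), -0.263 (young and old GSH-low) and 0.069 (old fractions). With 2 libraries per group these values cannot settle whether the old fractions are paired, so the block is given as an alternative only. Calls ended by the block were those of Srsf2 (adjusted p = 0.0503), Srsf4 (0.0562) and Hnrnph2 (0.0505) in old GSH-high and Srsf4 (0.0556) in old GSH-low, by limma with the block. Depth was at least 891 reads per value. The strand of the libraries, the reads shared with overlapping genes or pseudogene copies, and which isoforms the reads came from were not tested.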
